A study of Mus musculus with 6 samples.

Results

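Transcripts of 9 enzymes that break down glycine, exchange it with serine, make it from dimethylglycine and sarcosine, or build creatine from it were examined in the P13 kidney. They are the glycine cleavage genes Gldc, Amt, Gcsh and Dld, the cytosolic serine hydroxymethyltransferase Shmt1, the creatine synthesis genes Gatm and Gamt, and the dehydrogenases of the sarcosine pathway Sardh and Dmgdh. The 9 genes were chosen by pathway with their measured change between the groups known, so their changes, and which of them passed the threshold of a fit over all genes, are given as a description that supports nothing. All 9 had counts, out of 24422 gene symbols, and all 9 were among the 16509 genes with a DESeq2 adjusted p.

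Poly-A RNA of kidneys from C57BL/6 mice at postnatal day 13, fed a diet with 220 ppm iron, was sequenced in 6 libraries. Control kidneys (n = 3) were labelled wild type. TfR1 knockout kidneys (n = 3) carried Tfr1f/f with Six2Cre, in which exons of the transferrin receptor gene are removed by a recombinase expressed in nephron progenitors, so that collecting duct, stroma, vessels and immune cells are not targeted. The study also describes tubule cells that had escaped the deletion by this age. The receptor gene Tfrc had 5229 ± 1434 normalized counts in Control against 5640 ± 1482 (mean ± SD, n = 3) with the knockout, and its library values overlapped. A count over the whole gene includes the exons that are kept, so it does not check the genotype labels.

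The glycine cleavage system is a mitochondrial complex that splits glycine into carbon dioxide, ammonia and a methylene group carried by tetrahydrofolate. Its P protein (Gldc) decarboxylates glycine, its H protein (Gcsh) carries the intermediate on a lipoyl arm, its T protein (Amt) releases ammonia and hands the carbon to folate, and its L protein (Dld) reoxidizes the arm. In the kidney, proximal tubule cells take up filtered glycine and use part of it, with arginine, to make guanidinoacetate by the enzyme Gatm, which Gamt, mostly in liver, methylates to creatine.

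Total counts per library ran from 16591156 to 22898008. Counts were divided by DESeq2 size factors and are called normalized counts below. Libraries differed in ways that bear on these genes. Control replicate 3 was the lowest Control library for 9 of 9 genes, and the median ratio of its value to the mean of Control replicates 1 and 2 was 0.507 over the 9 genes, 0.503 over 14 proximal tubule markers and 0.995 over all genes tested. The 6 adrenal cortex genes examined summed to 25949 normalized counts in Control replicate 1 and 3382 in TfR1 knockout replicate 3, against 154 to 374 in the other libraries. Where a call on 1 of the 9 genes or a named related gene was lost without both of the latter libraries, its value without them is given.

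At an adjusted p under 0.05, 1 of the 9 genes was higher in TfR1 knockout kidneys and 2 were lower, and all 3 changes were at least 2-fold. Over all genes tested, 7.74% were higher and 7.18% lower at that threshold, and 4.41% and 4.46% with the 2-fold limit as well. With edgeR, 1 gene was higher and 1 lower, where 3.22% and 2.8% of genes passed. The 3 TfR1 knockout libraries lay above all 3 Control libraries for 1 gene and below them for 3 genes, which was the case for 16.9% of genes tested in each direction. Because the genes were picked from this comparison, nothing is read from these counts. The median log2 fold change was -0.48 over the 9 genes and 0.01 over all genes tested.

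**Figure D1:**
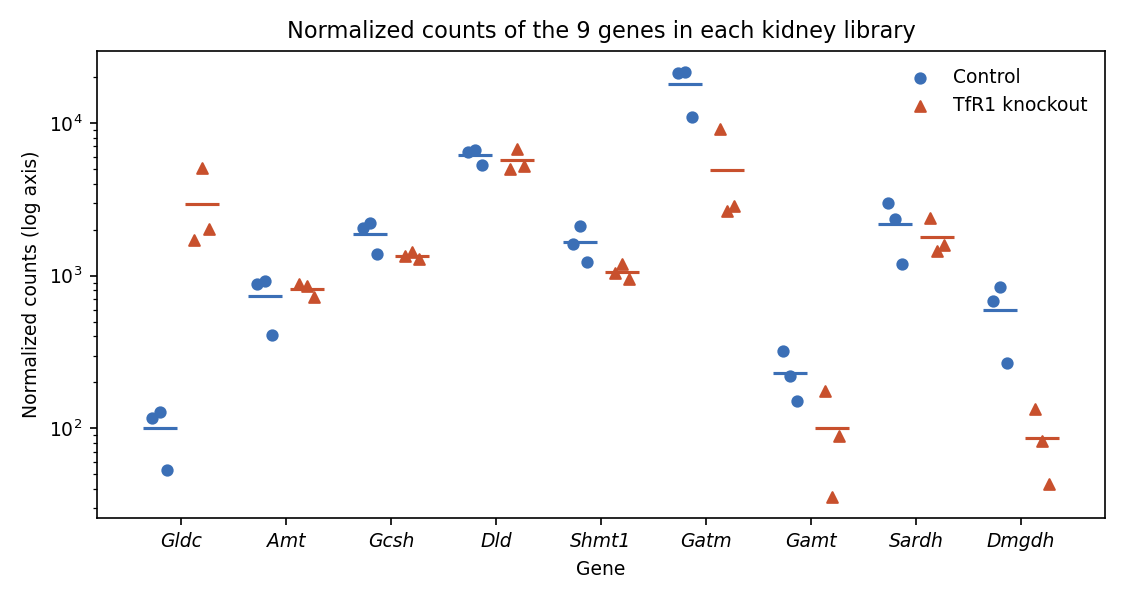
Normalized counts of the 9 genes on a log axis, with a point for each of 3 Control libraries (circles) and 3 TfR1 knockout libraries (triangles), in the order of the replicates, and a line at each group mean. Gldc rises from 53.8 to 129 in Control to 1714 to 5075 in knockout libraries, Gatm and Dmgdh lie lower in every knockout library, and the groups of the other glycine cleavage genes overlap.

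Of the 4 glycine cleavage genes, Gldc was the one that passed, and it was higher in knockout kidneys. Gldc (chromosome 19, 30172939 to 30249908, minus strand, mm9) had 118, 129 and 53.8 normalized counts in Control replicates 1 to 3, from 143, 142 and 50 reads. It had 1714, 5075 and 2030 normalized counts in TfR1 knockout replicates 1 to 3. The lowest knockout library was above the highest Control library, and knockout replicate 2 was 2.71 times the mean of the other 2. The log2 fold change was 4.87 (SE 0.46), a 29.3-fold rise. With 1 library left out it ranged from 4.22 (without TfR1 knockout replicate 2) to 5.14 (without replicate 1), and it was 5.21 without both libraries with adrenal transcripts. It passed in every setting tried.

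The 250 bases that precede the Gldc start are shown because this gene had the largest change of the 9, and those of Gatm because it fell and had the highest mean count over the 6 libraries. The sequences are RefSeq's for build GRCm38.p6, minus strand, at chr19:30175442-30175691 for Gldc and chr2:122611278-122611527 for Gatm, and capitals mark the CCAAT box on either strand.
Gldc: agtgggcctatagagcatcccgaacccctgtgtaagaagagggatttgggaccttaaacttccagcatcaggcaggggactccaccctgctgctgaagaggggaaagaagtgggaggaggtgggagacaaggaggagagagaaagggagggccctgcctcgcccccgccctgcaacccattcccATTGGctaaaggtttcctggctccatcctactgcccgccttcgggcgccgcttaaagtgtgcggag
Gatm: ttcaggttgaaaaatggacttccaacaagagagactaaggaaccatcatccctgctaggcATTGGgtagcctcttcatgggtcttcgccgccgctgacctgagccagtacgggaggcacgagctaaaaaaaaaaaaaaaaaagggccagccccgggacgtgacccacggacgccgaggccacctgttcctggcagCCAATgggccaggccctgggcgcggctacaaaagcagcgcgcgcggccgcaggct

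The CCAAT box, the core bound by NF-Y, begins at position -66 on the minus strand of the Gldc window and at positions -55 (plus strand) and -190 (minus strand) of the Gatm window, counting back from -1 at the base before the start. It is a common motif: 6 of the 9 genes hold it in these 250 bases, and so do 33.8% of 32851 mouse promoters. It was searched after the sequences had been seen. Of the other motifs searched on both strands, NCGTG is a loose form of the hypoxia core that takes any first base. It was in 7 of 9 windows (55.4% of promoters) and in neither the Gldc nor the Sardh window. The HNF1 half-site GTTAAT (6.43% of promoters), the HNF4 core CAAAGTCCA (0.384%) and the amino acid response element TGATGNAA (3.45%) were in 0 of 9. A match describes letters and does not show a bound site.

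The genes of the other subunits of the complex did not pass. Amt (chromosome 9, 108199184 to 108203902, plus strand) had 888, 925 and 407 normalized counts in Control and 882, 860 and 724 in TfR1 knockout libraries. The groups overlapped and the log2 fold change was 0.15 (SE 0.33), which turned to -0.15 without Control replicate 3. Gcsh (chromosome 8, 119505710 to 119517437, minus strand) had 2053, 2198 and 1386 normalized counts in Control and 1337, 1425 and 1286 in knockout libraries. Its log2 fold change of -0.48 (SE 0.22) did not pass. Control replicates 1 and 2 were above all knockout values of Gcsh and Control replicate 3 was inside their range. Without that library the log2 fold change was -0.66 and passed, and it also passed with total-count scaling (-0.58). Dld (chromosome 12, 32016429 to 32036302, minus strand), which the pyruvate, oxoglutarate and branched-chain ketoacid complexes share, had 6410, 6664 and 5312 normalized counts in Control and 5013, 6785 and 5210 in knockout libraries. The groups overlapped (log2 fold change -0.11, SE 0.20).

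Set against each other per length, the 4 subunits changed their proportions. Dividing each library's normalized counts by the gene's exon length in kilobases, Gldc made up 0.667%, 0.696% and 0.409% of the summed level of the 4 genes in Control libraries. In TfR1 knockout libraries it made up 11.3%, 23.4% and 13.2%. The share of Gcsh was 26.9% ± 1.64 in Control and 18.8% ± 2.79 in knockout kidneys (SD, n = 3), and that of Dld was 62.9% ± 4.20 and 54.7% ± 2.20. The share of Amt was 9.61% ± 2.42 and 10.6% ± 2.03. These levels depend on the length used: divided by coding length, the share of Gldc was 0.379% ± 0.0970 and 11.4% ± 5.10, that of Gcsh 43.95% ± 2.11 and 33.6% ± 3.90, and that of Dld 48.5% ± 3.91 and 46.4% ± 0.909, where the Dld values overlapped between groups. The shares sum to a whole, so a rise of Gldc lowers the others without any change in their own level.

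**Figure D2:**
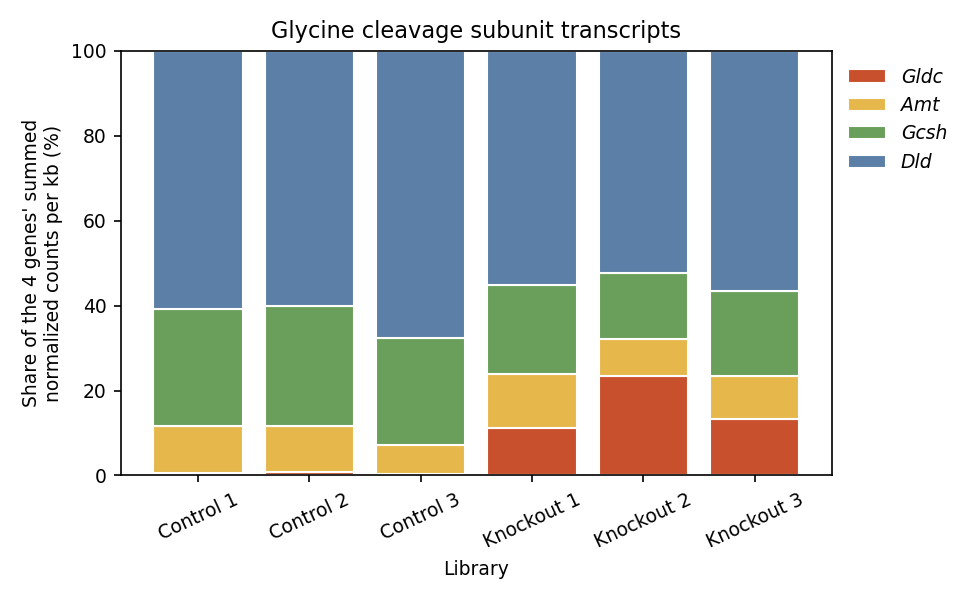
Stacked bars show, for each of the 6 libraries, the percentage of the summed normalized counts per kilobase of exon that came from Gldc, Amt, Gcsh and Dld. Gldc is under 1% in each Control bar and 11.3% to 23.4% in the TfR1 knockout bars, while Dld is the largest part of every bar.

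The ratio of Gldc to Amt normalized counts was steady among Control kidneys, where both genes were low in Control replicate 3. It was 0.133, 0.139 and 0.132 in Control replicates 1 to 3. In TfR1 knockout replicates 1 to 3 it was 1.94, 5.90 and 2.81. The ratio of Gldc to Gcsh was less steady in Control, at 0.0574, 0.0587 and 0.0388. In knockout libraries that ratio was 1.28, 3.56 and 1.58.

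Shmt1, which interconverts serine and glycine in the cytosol, was lower in each TfR1 knockout library than in any Control library. Shmt1 (chromosome 11, 60601606 to 60625220, minus strand) had 1622, 2114 and 1226 normalized counts in Control and 1034, 1186 and 956 in knockout libraries. The log2 fold change of -0.64 (SE 0.25) did not pass in DESeq2 or edgeR, and it passed without Control replicate 3 (-0.82). It also passed with total-count scaling (-0.75), upper-quartile scaling (-0.69), a minimum mean of 10 counts (-0.64) and the replicate number as a block (-0.61). Its mitochondrial partner Shmt2 had 1382 ± 450 normalized counts in Control and 2053 ± 144 in knockout kidneys, and did not pass (log2 fold change 0.57, DESeq2 adjusted p 0.16). The ratio of Shmt1 to Shmt2 counts was 1.02, 1.25 and 1.42 in Control libraries and 0.484, 0.628 and 0.447 in knockout libraries, with no overlap. The last 184 exon bases of Shmt1 overlap Smcr8 on the other strand, and whether reads were counted by strand is not given in the sources used here.

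Gatm, the arginine:glycine amidinotransferase that commits glycine to creatine, had the highest mean count of the 9 genes over the 6 libraries and fell. Gatm (chromosome 2, 122420203 to 122437039, minus strand) had 21291, 21498 and 10854 normalized counts in Control replicates 1 to 3. It had 9152, 2648 and 2856 in TfR1 knockout replicates 1 to 3. The groups did not overlap, but Control replicate 3 and knockout replicate 1 were close to each other. The log2 fold change was -1.87 (SE 0.48), 3.66-fold lower in knockout kidneys, and ranged from -1.57 without TfR1 knockout replicate 2 to -2.70 without replicate 1. It passed in DESeq2 and did not pass in edgeR (-1.88) or limma-voom (-2.07), nor without the 2 libraries with adrenal transcripts (-1.46).

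Gatm is a gene of the proximal tubule, and its Control values followed the proximal tubule markers. The normalized counts of 14 markers of this segment, among them the endocytic receptor Lrp2 and the phosphate carrier Slc34a1, summed to 74410 to 144948 in Control and 70111 to 102914 in TfR1 knockout libraries. Of the 14, 4 fell, 1 rose and 9 did not pass, and 0 were without counts. In edgeR 2 of the 14 fell and 1 rose. Over all genes tested, 7.18% fell and 7.74% rose in DESeq2, and 2.8% and 3.22% in edgeR. Per 1000 of these marker counts, Gatm had 147, 148 and 146 normalized counts in Control replicates 1 to 3. It had 99.4, 25.7 and 40.7 in knockout replicates 1 to 3. The coefficient of variation of Gatm among Control libraries was 34.0% before this division and 0.842% after it. Gatm had the smallest value of the 9 genes after it. The others ran from 7.93% (Amt) to 28.1% (Dld), and that of Dld was 11.7% before the division. The low value of Control replicate 3 was not particular to proximal tubule markers. Thick ascending limb and distal tubule markers summed to 107845, 119135 and 58726 normalized counts in Control replicates 1 to 3. Collecting duct markers summed to 20141, 19920 and 11335. In bulk kidney RNA, fewer cells of a type and less RNA per cell cannot be told apart.

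On that scale Gldc and Amt were higher in every knockout library than in any Control library, Gatm and Dmgdh were lower, and the other 5 genes overlapped. Amt had 6.15, 6.38 and 5.47 normalized counts per 1000 marker counts in Control and 9.58, 8.35 and 10.3 in TfR1 knockout libraries. Of all genes tested, 15.8% were higher and 4.12% lower in every knockout library on the same scale. The markers themselves differ between the groups in both directions, so this ratio compares each gene with their sum only.

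**Figure D3:**
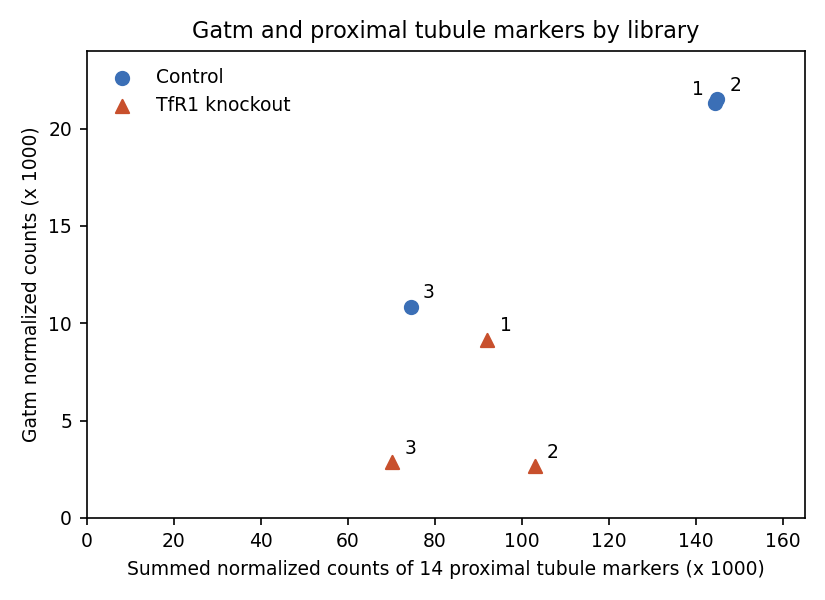
Gatm normalized counts against the summed normalized counts of 14 proximal tubule markers, both divided by 1000, for each Control library (circles) and TfR1 knockout library (triangles), numbered by replicate. The 3 Control points lie on a line through the origin at 146 to 148 per 1000, and the knockout points lie under it at 25.7 to 99.4.

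Gamt, the methyltransferase that completes creatine, did not pass. Gamt (chromosome 10, 79720896 to 79723757, minus strand) had 322, 222 and 151 normalized counts in Control and 177, 35.8 and 88.9 in TfR1 knockout libraries, the smallest value resting on 28 reads. Knockout replicate 1 was inside the Control range, and the log2 fold change of -1.20 (SE 0.54) did not pass. It passed without TfR1 knockout replicate 1 (-1.88) and with the replicate number as a block (-1.37). The ratio of Gatm to Gamt counts was 66.2, 96.9 and 72.0 in Control and 51.7, 73.9 and 32.1 in knockout libraries, and overlapped between groups.

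Dmgdh, the mitochondrial enzyme that turns dimethylglycine into sarcosine, fell. Dmgdh (chromosome 13, 94444388 to 94522786, plus strand) had 684, 836 and 267 normalized counts in Control and 133, 83.2 and 43.5 in TfR1 knockout libraries. The highest knockout library was below the lowest Control library. The log2 fold change was -2.78 (SE 0.50), 6.88-fold lower. With 1 library left out it ranged from -2.45 (without TfR1 knockout replicate 3) to -3.24 (without replicate 1), and it was -2.35 without both libraries with adrenal transcripts. It passed in every setting tried. The antisense transcript AW495222 shares 215 exon bases with Dmgdh.

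Sardh, which takes the next step from sarcosine to glycine, did not follow it. Sardh (chromosome 2, 27043913 to 27103857, minus strand) had 2996, 2339 and 1187 normalized counts in Control and 2367, 1452 and 1581 in TfR1 knockout libraries. The groups overlapped and the log2 fold change was -0.27 (SE 0.36). Control replicate 1, which held the most adrenal transcripts, was the highest library for Sardh, and the log2 fold change was 0.02 without it. Knockout replicate 3, the other library with many adrenal transcripts, had 1581 normalized counts of Sardh. Whether adrenal tissue added to these values was not tested. The ratio of Dmgdh to Sardh counts was 0.228, 0.358 and 0.225 in Control and 0.0563, 0.0573 and 0.0275 in knockout libraries, with no overlap. The processed transcript Gm17071 shares 188 exon bases with Sardh on the other strand.

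Dmgdh lies head to head with Bhmt2, a methyltransferase that makes methionine from homocysteine. Bhmt2 (chromosome 13, 94425675 to 94444257, minus strand) also fell, from 956, 1157 and 241 normalized counts in Control to 317, 296 and 209 in TfR1 knockout libraries. Control replicate 3 lay among the knockout libraries. Its log2 fold change was -1.52 (SE 0.49, DESeq2 adjusted p 0.0198). The call was lost in edgeR (-1.53) and limma-voom (-1.33), without both libraries with adrenal transcripts (-1.19), and when Control replicate 1 (-1.36) or 2 (-1.13) or knockout replicate 3 (-1.35) was left out. The 130 bases between the annotated starts of the pair are shown because both genes begin at its ends. They were read from the mm9 genome at chr13:94444258-94444387 on the plus strand, toward Dmgdh. They hold no CCAAT box on either strand.
Bhmt2-Dmgdh: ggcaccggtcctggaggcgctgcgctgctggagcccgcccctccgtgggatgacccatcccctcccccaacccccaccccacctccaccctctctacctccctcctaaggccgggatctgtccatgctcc

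**Figure D4:**
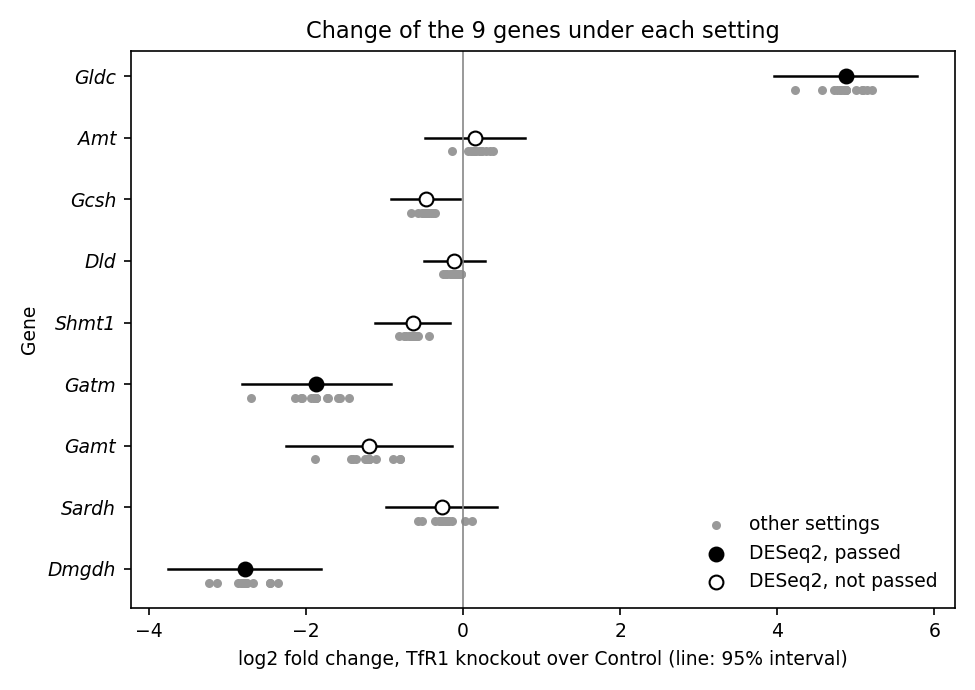
log2 fold change of each of the 9 genes, TfR1 knockout over Control, from DESeq2 with its 95% interval (large circles, filled where the adjusted p was under 0.05), and the estimate under each of the other settings (grey points). Gldc stays between 4.22 and 5.21 and Dmgdh between -3.24 and -2.35, whereas grey points of Amt and Sardh lie on both sides of 0.

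The order of the 9 genes by level per length changed between the groups. In Control kidneys Gatm had 5958 ± 2028 normalized counts per kilobase of exon (SD, n = 3), Dld 2735 ± 321 and Gcsh 1190 ± 274, with no overlap between these neighbours. Amt (434 ± 169), Shmt1 (426 ± 115) and Sardh (400 ± 169) did not differ beyond their spread. Sardh also overlapped Dmgdh (175 ± 86.4), and Dmgdh overlapped Gamt (160 ± 59.4). Gldc was last at 26.7 ± 10.8, below every Gamt value. In TfR1 knockout kidneys Dld came first at 2530 ± 433, before Gatm at 1628 ± 1232, but the pair overlapped: in knockout replicate 1 Gatm had 3050 and Dld 2237. Per kilobase of coding length their order turned, with knockout means of 3850 for Gatm and 3703 for Dld. Gldc was 4th at 783 ± 494, and its range of 457 to 1352 took in the Gcsh values (854 ± 44.8). Dmgdh was last at 25.4 ± 13.2.

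Genes whose library values were most alike were sought among the 12095 genes that averaged 100 or more normalized counts, by Pearson r over the 6 libraries on log2 of normalized counts plus 1. This r does not measure the size of a change. For Gldc they included Zdhhc13 (r 0.998) and Ccng1 (r 0.998). The log2 fold change was 0.18 for Zdhhc13 and 1.97 for Ccng1, against 4.87 for Gldc. Ccng1, a cyclin G gene known as a p53 target, had 2281, 2525 and 1736 normalized counts in Control and 6749, 11846 and 7120 in TfR1 knockout libraries. For Gatm they were Nek4 (r 0.998), Morn2 (r 0.997) and BC005624 (r 0.997). Their log2 fold changes were -0.66, -1.75 and -0.31, against -1.87 for Gatm. Morn2 had 363, 376 and 223 normalized counts in Control and 163, 61.4 and 60.5 in knockout libraries. With 6 points in groups of 3, such values describe the libraries only.

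Genes of neighbouring pathways were counted from 5 lists, written from pathway knowledge with earlier results of these data known. Of 75 related genes with an adjusted p, 10 rose, 10 fell and 55 did not pass, with a median log2 fold change of -0.03 against 0.01 over all genes tested. The shares of genes that passed in each direction over the whole table are those given above.

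The lipoyl arm of the H protein is made by a dedicated set of enzymes. Of 15 genes for lipoylation and for the other lipoyl complexes, 0 passed in DESeq2, edgeR or limma-voom. At an unadjusted p under 0.05 there was 1 in DESeq2 (Pdha1 of the pyruvate complex, higher) and 0 in edgeR and limma-voom. Lias, the iron-sulfur enzyme that completes lipoate, had 809 ± 24.3 normalized counts in Control and 916 ± 205 in TfR1 knockout kidneys (log2 fold change 0.18, SE 0.21, DESeq2 adjusted p 0.633).

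Among 19 genes of serine synthesis and folate-bound carbon, 5 rose, 3 fell and 11 did not pass. Aldh1l2, the mitochondrial enzyme that releases carbon from formyl-folate as carbon dioxide, rose from 80.0, 91.8 and 79.7 normalized counts in Control to 795, 714 and 429.5 in TfR1 knockout libraries. Its log2 fold change was 2.95 (SE 0.29, DESeq2 adjusted p 3.89e-21). The other genes that rose were the mitochondrial folate enzymes Mthfd2 (1.96) and Mthfd1l (1.16), the serine synthesis enzyme Psat1 (1.65) and the folate carrier Slc19a1 (1.15), of which edgeR called Mthfd2. Psat1 was not called by limma-voom either (1.45). Slc19a1 was also lost in limma-voom (1.18) and without both libraries with adrenal transcripts (1.18). Mthfd1l was lost in limma-voom (1.23), without both those libraries (1.08), and when Control replicate 1 (1.02) or 2 (0.95) or knockout replicate 2 (1.01) was left out. Folr1, a folate receptor of the proximal tubule, had 6653 ± 365 normalized counts in Control and, lower, 2741 ± 594 in knockout kidneys (log2 fold change -1.28, SE 0.21, DESeq2 adjusted p 4.92e-08). The thymidylate synthase gene Tyms (-0.67) also fell. It was not called by edgeR (-0.68) or limma-voom (-0.70), without both libraries with adrenal transcripts (-0.58), or when Control replicate 1 (-0.70) or 2 (-0.68) or knockout replicate 3 (-0.54) was left out. Phgdh, the first enzyme of serine synthesis, had 2114 ± 206 and 1651 ± 288 normalized counts (log2 fold change -0.36, DESeq2 adjusted p 0.232).

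Among 18 genes of choline, betaine and methionine, only some of which supply dimethylglycine to Dmgdh, Bhmt2 fell, Mat1a rose and 16 did not pass. Mat1a, the liver form of methionine adenosyltransferase, had 1.65, 1.82 and 1.08 normalized counts in Control and 30.8, 43.5 and 18.0 in TfR1 knockout libraries. No Control library had more than 2 reads of it, so no fold change is given. Bhmt, the betaine enzyme that makes dimethylglycine, had 13.2, 13.6 and 9.69 normalized counts in Control and 65.6, 17.9 and 13.2 in knockout libraries, and did not pass (DESeq2 adjusted p 0.197). Gnmt, which makes sarcosine from glycine, did not pass (log2 fold change 0.72, SE 0.41, DESeq2 adjusted p 0.248). Pipox, a peroxisomal sarcosine oxidase, had 2308 ± 594 normalized counts in Control and 1655 ± 425 in knockout kidneys (log2 fold change -0.48, DESeq2 adjusted p 0.278). Of 8 hepatocyte markers, 6 rose and 0 fell in DESeq2, and 3 rose and 0 fell in edgeR. The sum of these markers was 4709 to 5721 normalized counts in Control and 4738 to 16768 in knockout libraries, most of it Ttr. Their part in the result was not tested.

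Among 10 genes that make or break down arginine or handle creatine, 2 rose, 2 fell, 4 did not pass and 2 had too few counts. Arg2, the mitochondrial arginase, rose from 303, 376 and 202 normalized counts in Control to 702, 3146 and 1146 in TfR1 knockout libraries (log2 fold change 2.50, SE 0.50, DESeq2 adjusted p 2.5e-05). Knockout replicate 2 was highest, as for Gldc, and without it the log2 fold change was 1.65 and passed. The call was lost in limma-voom (2.21). Ckmt1, a mitochondrial creatine kinase, rose (1.04), a call lost without both libraries with adrenal transcripts (1.13). Ckb, the cytosolic brain-type creatine kinase, had 3535 ± 1303 normalized counts in Control and, lower, 1369 ± 657 in knockout kidneys (log2 fold change -1.37, SE 0.40, DESeq2 adjusted p 0.00803). The groups overlapped for Ckb, and its call was lost in edgeR (-1.38) and limma-voom (-1.39), without both libraries with adrenal transcripts (-1.07), and when Control replicate 1 (-1.17) or 2 (-1.26) or knockout replicate 3 (-1.27) was left out. The argininosuccinate lyase Asl fell (-0.84), and did not pass without both libraries with adrenal transcripts (-0.68). The creatine transporter Slc6a8 (log2 fold change 0.35, DESeq2 adjusted p 0.352) and Ass1, which precedes Asl in arginine synthesis (-0.31, DESeq2 adjusted p 0.731), did not pass.

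Among 17 genes for glycine transport and other glycine enzymes, 2 rose, 4 fell, 9 did not pass and 2 had too few counts or none. Slc6a9, a glycine transporter, had 257 ± 19.9 normalized counts in Control and, higher, 576 ± 98.8 in knockout kidneys. Its log2 fold change was 1.17 (SE 0.21, DESeq2 adjusted p 2.59e-06), and every TfR1 knockout library was above every Control library. Its call was lost without both libraries with adrenal transcripts (1.11). Sds, a serine dehydratase known from liver, rose from 4.12, 5.45 and 5.38 to 10.9, 56.3 and 25.5 normalized counts (log2 fold change 2.63). No Control library had more than 6 reads of Sds, so the size of its change is uncertain. Sds was not called by edgeR (2.57) or limma-voom (2.20), with a replicate block (2.37), without both libraries with adrenal transcripts (2.62), or when Control replicate 1 (2.50) or 2 (2.70) or knockout replicate 2 (1.88) was left out. Agxt2, an aminotransferase between alanine and glyoxylate that yields glycine, had 2417 ± 272 normalized counts in Control and, lower, 789 ± 306 in knockout kidneys (log2 fold change -1.62, SE 0.29, DESeq2 adjusted p 1.41e-06). Also lower in DESeq2 and not in edgeR were the apical neutral amino acid transporter Slc6a19 (-1.34) and the D-amino acid oxidase Dao (-1.06). The same held for Gcat, which makes glycine in threonine breakdown (-0.87). Without both libraries with adrenal transcripts none of these 3 passed (-0.98, -0.74 and -0.72), nor did they when Control replicate 1 (-1.24, -0.91 and -0.91) or 2 (-1.26, -0.85 and -0.86) was left out. When knockout replicate 3 was left out Slc6a19 (-1.08) and Dao (-0.89) did not pass, and neither did Slc6a19 without knockout replicate 1 (-1.09) or Dao without knockout replicate 2 (-1.01). In limma-voom Slc6a19 (-1.58) and Dao (-0.99) did not pass. Slc25a38, which carries glycine into mitochondria for heme synthesis, had 453 ± 78.7 and 463 ± 57.8 normalized counts (log2 fold change 0.03, DESeq2 adjusted p 0.955), and its sign changed with scaling.

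**Figure D5:**
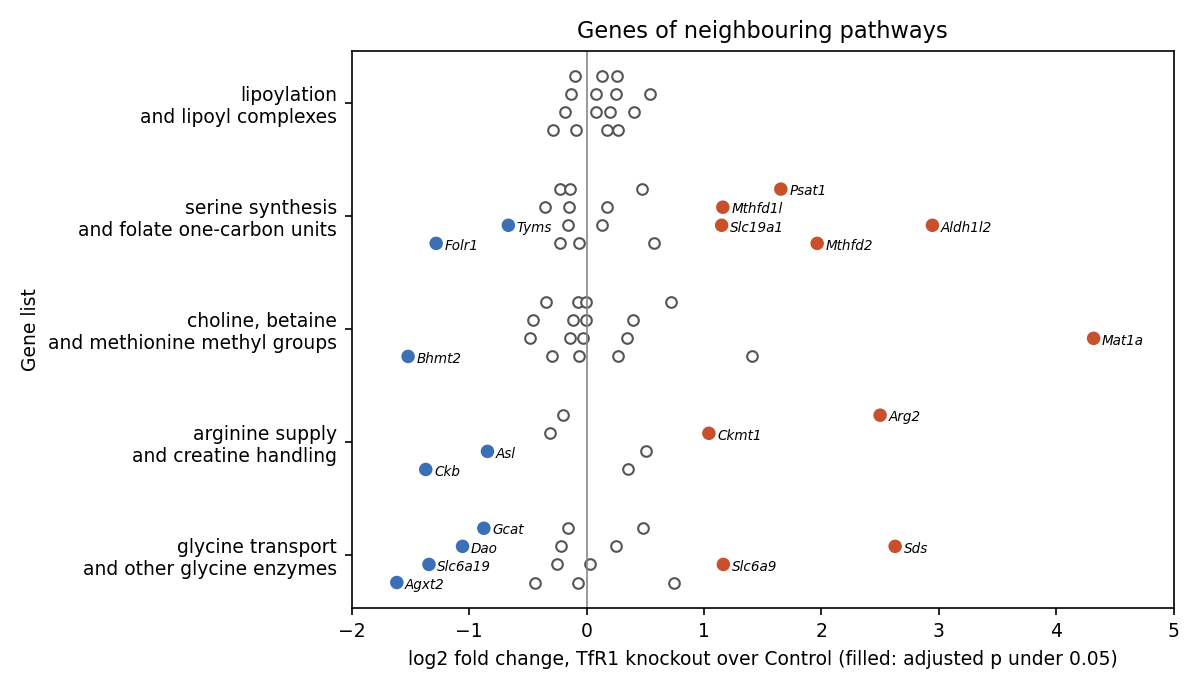
log2 fold change, TfR1 knockout over Control, of 74 of the 75 related genes with an adjusted p, with a row of points for each list; filled points had a DESeq2 adjusted p under 0.05 and are named, open points did not. All 15 lipoylation genes are open. The serine and folate list has filled points on both sides of 0, from Folr1 at -1.28 to Aldh1l2 at 2.95.

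Other segments and cell types moved between the groups as well, and their part in the values above was not tested. Of 7 thick ascending limb and distal tubule markers, 7 fell in DESeq2 and 6 in edgeR, which did not call Slc12a1. The sum of these markers was 58726 to 119135 normalized counts in Control and 14442 to 26981 in TfR1 knockout libraries. Of 7 collecting duct markers, 3 fell (Atp6v1b1, Slc4a1 and Slc26a4) and 2 rose (Aqp2 and Aqp3), with sums of 11335 to 20141 and 29522 to 62811. Most of each knockout sum was Aqp2, which had 4579 ± 1881 normalized counts in Control and 30696 ± 17578 in knockout kidneys. The higher sum therefore does not describe the list as a whole. In edgeR 2 collecting duct markers fell (Slc4a1 and Slc26a4) and 1 rose (Aqp2). Atp6v1b1 and Aqp3 were not called by edgeR. Of 10 macrophage markers, 8 rose in DESeq2 and 6 in edgeR (sums 2655 to 4391 and 8068 to 9931). The shares of all genes that passed in each tool are those given above. No marker of these lists was at 0 in every library.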

How the data were processed

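RNA of 3 Control and 3 TfR1 knockout kidneys was sequenced from TruSeq poly-A libraries. Per the labels and the study's methods, reads were processed with CASAVA 1.8.2, trimmed with Trimmomatic, aligned with TopHat2 2.0.11 to mm9 and counted per gene with HTSeq. The deposited values are raw counts, not normalized by the authors. The annotation and strand setting of the counting are not given in the sources used here. Groups and replicate numbers came from the labels. The series describes the 3 samples per group as biological replicates.

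The 9 genes, the 5 lists of related genes, the marker lists and the tests were chosen with earlier results of these data known. DESeq2 1.42.0 (R 4.3.3), the tool the study names, was fitted to all genes with median-ratio size factors, a Wald test and Benjamini-Hochberg adjustment, and a gene passed at an adjusted p under 0.05. Independent filtering set the lowest tested mean at 3.51 normalized counts. Alternatives were edgeR 4.0.16 (quasi-likelihood, TMM), limma 3.58.1 with voom, total-count and upper-quartile scaling, no filter, a mean of at least 10 counts, outlier filtering off, each library left out in turn, and a block for the replicate number. Leaving out both libraries with adrenal transcripts was added after seeing the data. The fits were tested on simulated data.

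Named related genes are the largest rise and fall of each list (averaging 100 or more normalized counts) and preset neighbours of the 9 genes. Others that passed are named because they are few, chosen after their values were seen. Results of 2 genes are not reported here. Positions and lengths come from GENCODE of the same mm9 build, and all 9 genes matched by symbol. Upstream sequences come from RefSeq (GRCm38.p6), where all 9 also matched. Total counts of 16591156 or more per library keep counting error small where counts are high. Precision is limited by 3 kidneys a group.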

Additional observations from a re-analysis of the deposited data

How the results depend on the processing

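Rises of Gldc and falls of Dmgdh passed in every setting run. Over the 9 genes and 15 other settings, 120 results kept their direction and side of the threshold, 9 came to pass, 3 no longer passed (Gatm, as given above) and 3 changed sign. The sign changes were Amt without Control replicate 3 (-0.15, range over left-out libraries -0.15 to 0.34) and Sardh without Control replicate 1 (0.024, range -0.57 to 0.024) and without both adrenal libraries (0.11). Among the related genes named, 355 results held, 58 no longer passed and 7 changed sign: Lias without TfR1 knockout replicate 2 (-0.014, range -0.014 to 0.29), Ass1 without Control replicate 1 (0.022, range -0.83 to 0.022) and without both adrenal libraries (0.21), and Slc25a38 with total-count (-0.081) or upper-quartile scaling (-0.021), without Control replicate 3 (-0.11) or TfR1 knockout replicate 2 (-0.074, range -0.11 to 0.13).

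Of the 9 genes, 1 was lower in edgeR, limma-voom and without both adrenal libraries, 4 with total-count scaling, 4 with a replicate block, and 2 to 4 with a library left out. Of the related genes, 4 were lower and 6 higher in edgeR, 5 and 5 in limma-voom, 2 and 5 without both adrenal libraries, and 4 to 11 lower and 8 to 10 higher with a library left out. Over all genes, 428 were lower and 493 higher in edgeR, 456 and 485 in limma-voom, 260 and 421 without both adrenal libraries, where only 4 libraries remained, and 575 to 1674 lower and 664 to 1531 higher with a library left out. Total-count scaling gave 1407 lower and 996 higher against 1186 and 1277, and moved the median of all genes to -0.10 on the log2 scale. The Control order per length kept 5 of 9 ranks with the longest transcript and 4 with coding length.

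A replicate block gave 1087 lower and 1085 higher genes, and 10 related genes fell and 10 rose. Deviations of same-numbered libraries from their group means correlated at -0.04, 0.06 and 0.09 for numbers 1 to 3, and equal numbers were therefore not treated as pairs. The cause of each change named here was not tested.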
